A study of Mus musculus with 26 samples.

Results

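This report compares nuclei of the embryonic cortex that developed without the receptor CSF1R with nuclei of wild-type littermates, all from mothers whose immune system had been activated. The comparison rests on 4 of the 26 samples of the series, 2 Csf1r-null and 2 wild-type single-nucleus RNA libraries, taken by the genotype and treatment in their labels. Barcodes with at least 500 unique molecular identifiers (UMIs, tags that count captured RNA molecules once each) and 200 genes were kept, which gave 22144 nuclei of the 43456 in all 8 nuclei libraries. The dams of all 4 libraries were injected into the peritoneum on E12.5 (embryonic day) with poly(I:C), an RNA mimic of viral infection that is used to bring about maternal immune activation (MIA). The prospective somatosensory cortex was collected at E15.5 from male embryos of the Csf1r-/- line, kept on a C57Bl/6N background, and by the study's methods frozen, digested with papain, sorted as nuclei and captured with a droplet kit that reads the 3' end of transcripts. The 2 groups thus share the MIA, the sex and the age, and differ in the Csf1r genotype, a constitutive deletion that takes the receptor from every cell of the embryo and not from microglia alone. By the study's sample sheet each MIA library was made from 1 embryo, but the sheet gives both wild-type MIA entries the same name, and the study used few dams, so embryos of both groups may share a mother. Where differences are given, they run as Csf1r-null minus wild type within a replicate number, that is, Csf1r-null MIA 1 against wild-type MIA 1 (pair 1) and Csf1r-null MIA 2 against the library labelled wild-type MIA 2 (pair 2). The 4 saline libraries of the same genotypes stand beside them and lend their spread to the tests.

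Microglia are the resident macrophages of the brain and enter the cortex in the embryo, before most neurons have reached their layers. They need signals through CSF1R, a receptor tyrosine kinase on their surface, to form and survive, and mice without it have hardly any. At this age the cortex is otherwise made of apical progenitors that line the ventricle, intermediate progenitors derived from them, newborn neurons on their way to the cortical plate, young projection neurons and interneurons that arrive from the ventral forebrain. The comparison asks how these cells differ after maternal inflammation when microglia are lacking.

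The libraries were of like size but not of like depth. Csf1r-null MIA 1 and wild-type MIA 1 held 4552 and 6083 nuclei with 14865613 and 17605575 UMIs, and Csf1r-null MIA 2 and the library labelled wild-type MIA 2 held 6198 and 5311 nuclei with 11132351 and 11162049 UMIs. The median nucleus had 2953.5 and 2517 UMIs in pair 1 and 1630 and 1880 UMIs in pair 2. Libraries shared between 0 and 14 barcodes, and mitochondrial transcripts made up at most 0.0286% of the UMIs in any MIA library. Replicate numbers stand for more than the embryo: replicate 1 and 2 were counted with different software versions and gene lists, and in all 4 groups the same 198 of 14509 genes differed at least 2-fold in 1 direction between replicate 1 and 2. An example is Rnasek, which encodes a ribonuclease, with 0.322 and 1.03 CPM (UMIs of a gene for a library total of 1000000) in pair 1 and 186 and 151 in pair 2. Libraries are therefore compared within pairs, which removes such a shift only where it is equal in both genotypes, and for some genes it was not.

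The genotype labels were checked first with 21 genes of microglia, among them Csf1r itself, the fractalkine receptor Cx3cr1, the purinergic receptor P2ry12 and the complement genes C1qa, C1qb and C1qc. Summed over the list, Csf1r-null MIA 1 held 16 UMIs, or 1.03 CPM (95% Poisson interval 0.590 to 1.67). Wild-type MIA 1 held 367 UMIs, or 19.9 CPM (17.9 to 22.0), with all 21 genes detected. In pair 1 the microglial genes were thus 19.3-fold (11.7 to 34.1) higher in the wild type, as its label says. Csf1r-null MIA 2 held 32 UMIs, or 3.12 CPM (2.13 to 4.4). The library labelled wild-type MIA 2 held 21 UMIs, or 1.89 CPM (1.17 to 2.89), with 10 of the 21 genes detected. In pair 2 the level of the wild-type label was 0.607-fold that of the Csf1r-null library, with an interval of 0.33 to 1.09 that spans equality, and wild-type MIA 1 was 10.5-fold (6.77 to 17.2) higher than the library that carries the same label. These intervals cover counting error only.

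C1qa, a subunit of the first complement component, had 0 UMIs in Csf1r-null MIA 1, 23 in wild-type MIA 1, 0 in Csf1r-null MIA 2 and 0 in the library labelled wild-type MIA 2. Cx3cr1 had 0, 18, 2 and 1 UMIs in the same order, and Fcrls, a receptor-like gene of mouse microglia, 0, 24, 1 and 0. Csf1r had 2, 23, 1 and 1 UMIs. Counts from the 3' end of the transcript do not show whether the gene was deleted, so the 2 UMIs of a Csf1r-null library do not check its genotype. Among the other listed genes, C1qb, C1qc, Spi1, Siglech, Ly86 and Trem2 were likewise at 0 in every MIA library but wild-type MIA 1, which held every gene of the list.

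Clustering of nuclei gave the same picture. A cluster of 31 nuclei over all 8 libraries carried all 21 microglial genes and was named microglia-like. It held 9 of 5787 nuclei of wild-type MIA 1, a share of 0.156% (exact Clopper-Pearson interval 0.0711 to 0.295), and those 9 nuclei supplied 72.8% of the microglial UMIs of that library. Of the other MIA libraries none had a nucleus in it. For Csf1r-null MIA 1 the 0 of 4386 nuclei allow a share of up to 0.0684%. The 9 genes of macrophages of the brain borders had 36, 48, 25 and 27 UMIs in the 4 libraries, in the order above, but these were mostly F13a1, Ms4a6c and Stab1, while the mannose receptor Mrc1 had 0, 1, 0 and 1 and Lyve1 was at 0 in all, so this list is too sparse to compare border macrophages. The same check in the saline libraries set apart the library labelled Csf1r-null saline 2, which had 217 microglial UMIs beside 248 in wild-type saline 2, whereas Csf1r-null saline 1 had 26 and wild-type saline 1 had 567. Hence the microglial genes go against the label of 1 MIA library, and in pair 2 a Csf1r-null library is set against one whose microglial genes lay no higher than its own. The study genotyped the embryos with primers for Csf1r and reports its microglia cluster as almost gone in Csf1r-null mice. It also reports their lack of microglia by immunohistochemistry. Whether libraries were exchanged was not tested, and the groups were kept as labelled, so what pair 2 and saline pair 2 compare is uncertain. Values are therefore given by pair for the genes and lists described most closely.

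**Figure D1:**
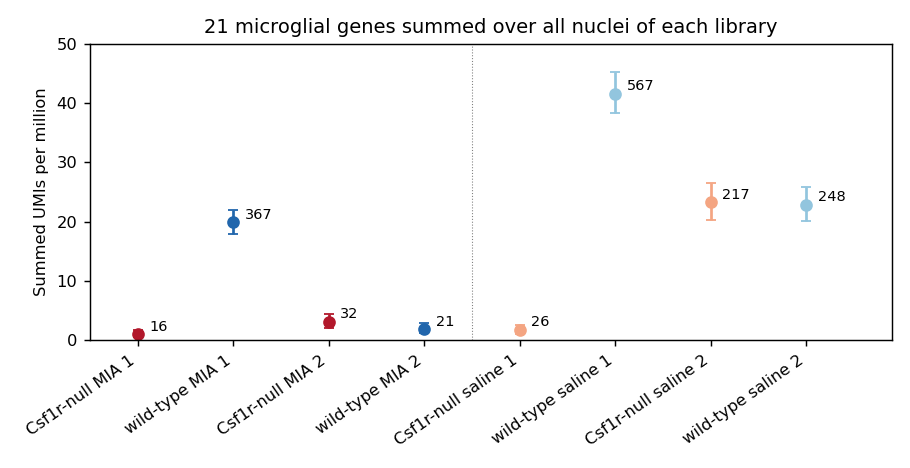
Summed CPM of 21 microglial genes over all nuclei of each library, with 95% Poisson intervals and the number of UMIs beside each point. Among the MIA libraries only wild-type MIA 1 stands apart, at 19.9 CPM, and the library labelled wild-type MIA 2 lies at 1.89, within the range of the Csf1r-null MIA libraries.

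No gene passed the test across the transcriptome. With edgeR's quasi-likelihood test on UMIs summed over all nuclei, and the replicate number as a block, 0 of 14509 genes had a Benjamini-Hochberg adjusted p under 0.05 (0%), and the lowest adjusted p was 0.9997. DESeq2 called 0 genes as well. At an unadjusted p under 0.05 there were 212 genes (1.46%) with edgeR, 71 higher and 141 lower in Csf1r-null, and 83 with DESeq2. Both are fewer than a threshold of 0.05 would pass if no gene differed, so these counts by themselves show no difference. In simulated libraries of the same depths and spread, the same fit found 129 of 200 genes changed 2-fold (64.5%), with 13 false calls among the 14286 genes tested. The simulation held no shift between replicates and took every label as true, unlike these data, so the share found may not hold for them. In the real fit the 17 tested microglial genes had a median log2 difference of -3.02, and 0 of them were called. The median standard error (SE) of a log2 difference was 0.146 for genes with at least 10 CPM, which makes a 1.22-fold difference 2 SE wide. P-values measure the spread between these libraries, with 2 per group.

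Within each pair the difference between genotypes was small, and the pairs were not alike. Of 9522 genes with at least 10 CPM, pair 1 had 1 gene that differed at least 2-fold (0.0105%), with a standard deviation (SD) of all differences of 0.16 on the log2 scale. Pair 2 had 55 such genes, 32 higher and 23 lower in Csf1r-null (0.578%), with an SD of 0.292. Pair 1, which had the 19.3-fold difference in microglial genes, was also the deeper pair. Its median nucleus had 2953.5 and 2517 UMIs, against 1630 and 1880 in pair 2. The part of depth or of microglia in these SDs was not tested. The saline pairs, with 1.12% and 0.347% of genes past 2-fold, had SDs of 0.318 and 0.307. No gene differed at least 2-fold in both MIA pairs, and across genes the differences of pair 1 and pair 2 had a correlation of -0.26, a description over 9522 genes that share libraries and are not independent replicates.

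**Figure D2:**
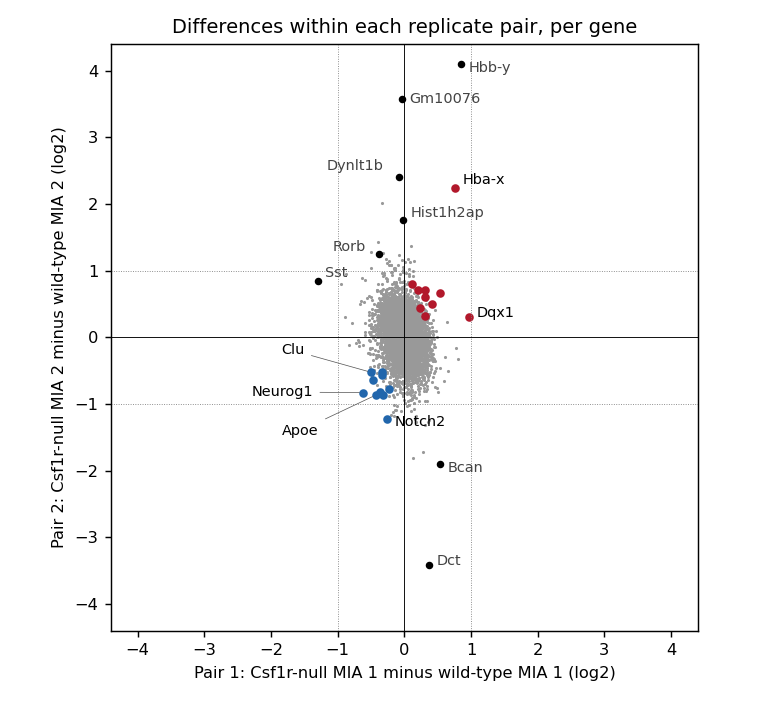
Log2 difference of Csf1r-null minus wild type in pair 1 (horizontal) and in pair 2 (vertical) for 9522 genes with at least 10 CPM, each as 1 grey point, with dotted lines at 2-fold. Blue and red points are the 10 lower and 10 higher genes chosen by the smallest unadjusted p among those with 1 direction in both pairs, and black points are other genes with large differences. The cloud is taller than wide, and Hbb-y, Gm10076 and Dct lie far from 0 in pair 2 but within 2-fold in pair 1.

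The genes of this and the next paragraph were chosen for their large differences within a pair, after their values were seen. The gene past 2-fold in pair 1 was Sst, the neuropeptide somatostatin of a class of interneurons. It had 16.4 CPM in Csf1r-null MIA 1 and 41.0 in wild-type MIA 1, but 40.9 and 22.4 in pair 2, the opposite order. Neuropeptide Y, Npy, of overlapping interneurons, behaved alike with 23.7 and 44.1 in pair 1 and 31.2 and 16.0 in pair 2. Interneurons made up 5.13% of nuclei in Csf1r-null MIA 1 and 6.19% in wild-type MIA 1, but 4.72% and 3.89% in pair 2, so the share of interneuron nuclei moved with both peptides. In sums over all nuclei, fewer cells of a type and less RNA per cell cannot be told apart. Within interneuron nuclei Sst had 299 and 724 CPM in pair 1 and 901 and 509 in pair 2, the same orders, and the list of 12 interneuron genes had median log2 differences of 0.05 and 0.12 in the pairs, Csf1r-null against wild-type. That list also named the interneuron class, so its values within the class are partly set by the naming.

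In pair 2 the largest differences fell on genes of several kinds. Dct, an enzyme of melanin synthesis also found in cortical progenitors, had 3.41 CPM in Csf1r-null MIA 2 and 41.2 in the library labelled wild-type MIA 2, beside 9.28 and 7.04 in pair 1. Among apical progenitors, 2.54% of nuclei had a Dct UMI in Csf1r-null MIA 2 and 22.1% in the library labelled wild-type MIA 2, against 13.3% and 8.65% in pair 1. Dct was therefore high in 1 library and low in its partner, with pair 1 between them. Bcan, a proteoglycan of the extracellular matrix, followed with 5.75 against 22.9, and 11.5 against 7.75 in pair 1. Neuronal genes lay on the other side. Rorb, a nuclear receptor of upper-layer and thalamus-recipient neurons, had 446 in Csf1r-null MIA 2 and 188 in the library labelled wild-type MIA 2, and 275 and 357 in pair 1. The cell adhesion gene Lsamp had 218 and 89.3, and 153 and 217 in pair 1. In each of these 4 genes the order in pair 1 was the reverse of that in pair 2.

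The 20 genes named next have the smallest unadjusted p among genes of at least 10 CPM that lay on 1 side in both pairs, 10 in each direction. Their common direction was a condition of the choice and is no evidence, and none passed the adjusted test. Without the library labelled wild-type MIA 2, 5 of the 20 had an unadjusted p under 0.05, and 8 moved by more than 1.5 times.

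Notch2 (chromosome 3, 98013527 to 98150361, GRCm38, protein-coding), a receptor that keeps progenitors undifferentiated, had 65.6 CPM in Csf1r-null MIA 1, 78.3 in wild-type MIA 1, 54.3 in Csf1r-null MIA 2 and 127 in the library labelled wild-type MIA 2. The library labelled wild-type MIA 2 was high and the other 3 lay close together. The fitted log2 difference was -0.77 (SE 0.220, unadjusted p = 0.00605 and adjusted p = 0.9997 with edgeR), and -0.28 without that library. Among apical progenitors alone Notch2 had 579 and 686 CPM in pair 1 and 538 and 865 in pair 2. These nuclei are part of the sums by which Notch2 was chosen, so their order is no separate evidence. After saline it had 67.5 and 90.5 CPM over all nuclei in pair 1 and 58.3 and 75.7 in pair 2, lower under the Csf1r-null label there as well. Lfng, a sugar transferase that modifies Notch receptors, was chosen after its values were seen and had 11.9 and 13.3 in pair 1 and 10.1 and 23.6 in pair 2. Hes5, a target of Notch signaling, had 45.7 and 49.8, then 51.6 and 111. The genes set beside Notch2 were picked with their values known, so no count over the pathway follows from them.

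Gas1, a membrane protein that takes part in Sonic hedgehog signaling and in growth arrest, had 120 and 152 CPM in pair 1 and 122 and 175 in pair 2. Here both wild-type labels lay above both Csf1r-null libraries, with a log2 difference of -0.43 (SE 0.133) that was -0.42 without the library labelled wild-type MIA 2. Within apical progenitors, where Gas1 is mainly found, the values were 1000 and 1110 in pair 1 and 1050 and 1090 in pair 2, a log2 difference of -0.10 (SE 0.144). The difference within the progenitors was smaller than that between the sums, but they were not tested against each other. The part of the progenitor share in the sums was not tested. Tgfb2, a ligand of the TGF-beta family, which microglia need for their identity, had 16.9 and 21.6 in pair 1 and 15.6 and 23.2 in pair 2, a log2 difference of -0.46 (SE 0.153). Plce1, a phospholipase downstream of Ras, had 21.3 and 26.8, then 16.6 and 30.6.

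Neurog1, a proneural transcription factor of intermediate progenitors, had 7.16 CPM in Csf1r-null MIA 1, 11.3 in wild-type MIA 1, 12.2 in Csf1r-null MIA 2 and 22.0 in the library labelled wild-type MIA 2. The groups overlapped, since the replicates differed as much as the genotypes, and the log2 difference was -0.76 (SE 0.230), or -0.47 without the library labelled wild-type MIA 2. After saline it was 0.50, and the difference between the effects had an unadjusted p = 0.0039 and an adjusted p of 0.909 in edgeR's interaction test. Within intermediate progenitors Neurog1 had 95.6 and 119 in pair 1 and 103 and 182 in pair 2. Cdk1, the kinase that drives entry into mitosis, had 13 and 18.3 in pair 1 and 13.2 and 20.8 in pair 2, and after saline the log2 difference was of like size, -0.63 beside -0.57 after MIA.

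A lipid carrier and a chaperone lay on the same side. Apoe, a lipid carrier made by radial glia, astrocytes and microglia, had 13.2 and 17.9 CPM in pair 1 and 14.1 and 26.1 in pair 2. Clu, the chaperone clusterin, had 14.5 and 20.7, then 20.0 and 28.9. For both, each wild-type label lay above its partner. Clu and Apoe were also lower in Csf1r-null after saline, with log2 differences of -0.93 and -1.06, against -0.52 and -0.68 after MIA, where Apoe had -0.37 without the library labelled wild-type MIA 2. Pcyox1l, a gene related to prenylcysteine oxidase, had 23.7 and 28.1, then 19.7 and 34.0.

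The 10 genes with higher values in Csf1r-null follow, with no test of a shared role. Dqx1, which encodes a putative RNA helicase, had 13.3 CPM in Csf1r-null MIA 1, 6.55 in wild-type MIA 1, 18.8 in Csf1r-null MIA 2 and 15.0 in the library labelled wild-type MIA 2. Its log2 difference was 0.67 (SE 0.195) after MIA and 1.41 after saline, so that in all 4 pairs the library with the Csf1r-null label lay above its partner. Nefm, a neurofilament of growing axons, had 19.9 and 16.0, then 19.0 and 11.4. The chromatin reader Phf6 had 108 and 100 in pair 1 and 294 and 169 in pair 2, and the zinc finger gene Zfp9 30.1 and 22.5, then 32.3 and 22.7. The kinase Pak3, which shapes the actin of spines and neurites, had 107 and 86.3, then 84.3 and 67.0. Fgf11, an intracellular member of the fibroblast growth factor family, had 37.9 and 32.1, then 41.9 and 30.7. The remaining genes were Lemd1 with 26.9 and 18.4, then 6.43 and 3.87, the zinc finger gene Zscan22 with 11.0 and 8.72, then 35.4 and 23.0, and the globins Hba-x and Hba-a1, which are taken up below.

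The shares of cell types among nuclei were compared next. Apical progenitors, identified by Sox2, Pax6, Hes1 and Vim, made up 11.65% of nuclei in Csf1r-null MIA 1 and 12.58% in wild-type MIA 1, and 10.71% and 14.06% in pair 2. Intermediate progenitors, identified by Eomes and Neurog2, made up 8.62% and 10.14% in pair 1 and 11.03% and 14.34% in pair 2. Both progenitor classes thus had lower shares in Csf1r-null in both pairs, apical progenitors by 0.93 and 3.35 percentage points and intermediate progenitors by 1.52 and 3.31. In pair 1 the exact 95% intervals overlapped for both classes. They were 10.72% to 12.64% in Csf1r-null and 11.74% to 13.46% in wild type for apical progenitors, and 7.80% to 9.49% and 9.38% to 10.95% for intermediate progenitors. The larger differences were those of pair 2, where the microglial genes go against the wild-type label. With 2 libraries against 2, an exact permutation test cannot give a two-sided p below 0.33, and the shares are given as a description, with no test. For apical progenitors both wild-type shares lay above both Csf1r-null shares, while for intermediate progenitors Csf1r-null MIA 2 lay above wild-type MIA 1. After saline the differences were -1.78 and -0.27 for apical and 1.66 and 0.45 for intermediate progenitors, the last of which turned to -0.62 among nuclei of at least 1000 UMIs. Wild-type saline 1 holds a cluster led by Ebf1 and other striatal genes, 20.64% of its nuclei against 0.16% to 0.97% in the other libraries. Without that cluster, a choice made after the data were seen, the saline differences in pair 1 were -4.53 for apical and -0.43 for intermediate progenitors, while those of the MIA pairs moved by at most 0.03 points.

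Callosal projection neurons, with Inhba among their leading genes, made up 12.49% and 11.23% of nuclei in pair 1 and 9.18% and 6.84% in pair 2, that is, 1.26 and 2.34 points more in Csf1r-null. Corticothalamic projection neurons, marked by Tle4, Foxp2 and Zfpm2, made up 25.99% and 25.63%, then 22.92% and 20.65%, and their difference of 0.36 points in pair 1 turned to -0.39 among nuclei of at least 1000 UMIs. Migrating neurons, marked by Unc5d and Sema3c, made up 20.63% and 21.82% in pair 1 and 32.8% and 32.02% in pair 2, where replicates, which also differed in depth per nucleus, lay farther apart than genotypes. A further 11.75% to 14.89% of nuclei in pair 1 and 7.75% to 8.23% in pair 2 stayed unnamed. One unnamed cluster, 0.64% to 0.9% of the nuclei of the MIA libraries, was led by globin genes together with the mitotic genes Cenpe and Mki67 and held all 7 intermediate progenitor markers, so some mitotic progenitors are missing from the shares and from the values within progenitors. Other clusters led by Top2a, a gene of dividing cells, stayed in the apical and intermediate classes. Counted as intermediate progenitors, the cluster led by globin genes gave differences of -1.79 and -3.38 points after MIA and 1.98 and 0.04 after saline.

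**Figure D3:**
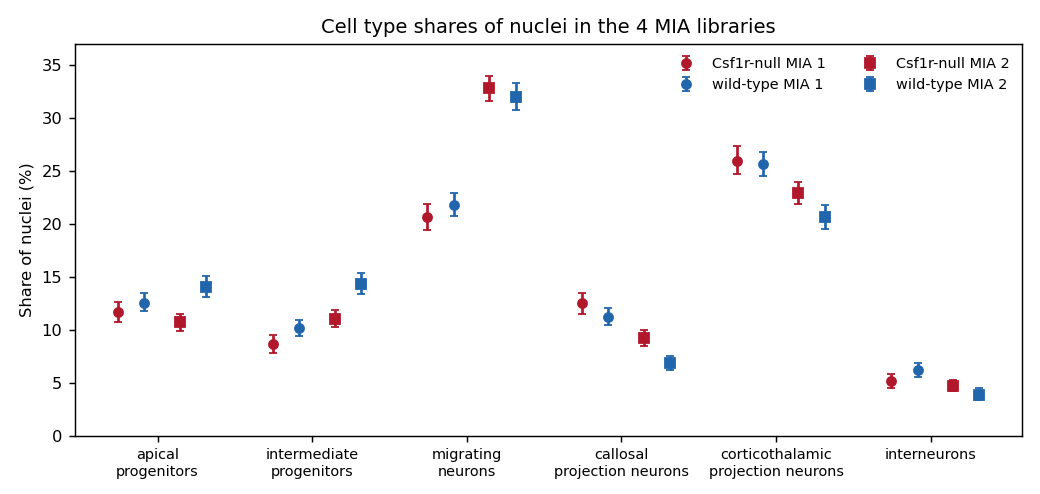
Share of nuclei (percent, with exact 95% Clopper-Pearson intervals that cover counting error only) of 6 cell types in the 4 MIA libraries, Csf1r-null in red and wild type in blue, with circles for replicate 1 and squares for replicate 2. Both progenitor classes lie lower in Csf1r-null within each pair, by 0.93 to 3.35 percentage points, with intervals that overlap in pair 1. Migrating neurons lie at 20.63% and 21.82% in replicate 1 and at 32.8% and 32.02% in replicate 2.

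Genes of the cell cycle lay mostly lower in Csf1r-null in sums over all nuclei. Of 38 genes of S phase and mitosis, 0 were higher and 26 lower in Csf1r-null in both pairs, whereas of all 14509 genes tested 3293 (22.7%) were higher and 2859 (19.7%) lower in both. None passed the adjusted test and 4 had an unadjusted p under 0.05. The median log2 difference of the list was -0.21, with -0.15 in pair 1 and -0.26 in pair 2, beside 0.01 for all genes. Top2a, the topoisomerase of dividing cells, had 134 and 139 CPM in pair 1 and 96.4 and 154 in pair 2, and the proliferation marker Mki67 had 99.9 and 103, then 61.5 and 84.7. In both genes pair 1 differed little and Csf1r-null MIA 2 was the lowest of the 4. Within apical progenitors the median of the same list was 0.03, with 0.07 in pair 1 and -0.09 in pair 2, and 9 genes higher and 5 lower in both. Within intermediate progenitors it was -0.24, with -0.40 in pair 1 and -0.03 in pair 2, and 6 genes higher and 17 lower in both. Sums and values within a class were not tested against each other. Of all genes tested, 2421 and 2476 of 10738 were higher and lower in both pairs within apical progenitors, and 2280 and 2147 of 9955 within intermediate progenitors. After saline the median over all nuclei was -0.59, with -0.84 in pair 1 and -0.24 in pair 2. Saline pair 1 holds the cluster led by striatal genes, and saline pair 2 the library labelled Csf1r-null saline 2. Without the library labelled wild-type MIA 2 the median after MIA was -0.11, and it was -0.07 when the library labelled Csf1r-null saline 2 was also left out.

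Of 54 tested replication-dependent histone genes, 3 were higher and 23 lower in both pairs, with a median of -0.17. Hist1h2ap stood apart with 21.9 and 22.1 CPM in pair 1 but 321 and 94.5 in pair 2, while the saline replicate 2 libraries had 355 and 359. Markers of apical progenitors had 0 of 8 genes higher and 5 lower in both pairs (median -0.17). Markers of intermediate progenitors had 0 of 7 higher and 5 lower (median -0.34), with medians of -0.30 and -0.37 in the pairs. Neurog2, a proneural factor, had 137 and 169, then 212 and 274, a log2 difference of -0.34 (SE 0.144, unadjusted p = 0.042 in edgeR's test). Eomes, the transcription factor that defines the class, had 87.2 and 87.8, then 87.6 and 108, which is a difference in pair 2 alone. Within their own classes the medians lay nearer 0, though that change was not tested: the apical list had a median of 0.02 in apical progenitors (pairs -0.03 and 0.13, 3 genes higher and 2 lower in both), and the intermediate list -0.11 in intermediate progenitors (pairs -0.02 and -0.15, 1 higher and 4 lower). The same lists named these classes, so their values within a class are partly set by the naming. They cannot show whether the level per nucleus differed. The median of the apical list was 0.00 without both libraries that go against their labels, and that of the intermediate list -0.15.

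For markers of neurons, the medians of pair 1 and pair 2 were -0.11 and 0.38 for the callosal, 0.07 and -0.02 for the corticothalamic, 0.13 and 0.01 for the subcerebral and 0.14 and 0.05 for the migrating list, and no gene of these 4 lists had an unadjusted p under 0.05. Of the callosal list 2 of 7 genes were higher and 0 lower in both pairs, of the corticothalamic 1 and 1 of 7, of the subcerebral 1 and 0 of 6, and of the migrating 4 and 1 of 6. Sox5, which times the output of deep-layer neurons, had 1040 and 926 CPM in pair 1 and 856 and 624 in pair 2, the lowest value being that of the library labelled wild-type MIA 2. Interneuron genes had a median of -0.06, with -0.11 in pair 1 and 0.18 in pair 2, genes of the ventral forebrain -0.20 over 6 tested, and genes of Cajal-Retzius cells, early neurons at the surface, 0.02 over 7. Ebf1, a striatal gene, had at most 15.3 in a MIA library but 670 in wild-type saline 1, a library that enters the comparison with saline.

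Signals that microglia read from other cells were 11 genes, 10 of them tested. Their median was -0.31, with -0.29 in pair 1 and -0.11 in pair 2. Of the 10, 1 was higher and 5 lower in both pairs, beside 22.7% and 19.7% of all 14509 genes tested. Summed over the 11 genes, the list had 348 and 369 CPM in pair 1 and 373 and 339 in pair 2, opposite orders. The CSF1R ligand Csf1 had 6.58 and 6.93 CPM in pair 1 and 6.04 and 9.10 in pair 2. Cx3cl1, the ligand of CX3CR1, had 1.42 and 2.11, then 1.46 and 2.07. The chemokine Cxcl12 pointed the other way within pair 2, with 33.1 and 40.0, then 57.4 and 41.0, and the inhibitory ligands Cd200 and Cd47 had log2 differences of -0.18 and 0.43 (Cd200) and of 0.02 and 0.07 (Cd47) in pair 1 and pair 2. The low counts of Csf1 and Cx3cl1 limit what could be seen in them.

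Of 15 tested interferon response genes, 4 were higher and 6 lower in both pairs, with a median of -0.12, and 0 had an unadjusted p under 0.05. For this and the following lists, the shares over all 14509 genes tested were 22.7% higher and 19.7% lower in both pairs. Stat2, which carries the signal of type I interferon, had 27.2 and 23.3 CPM in pair 1 and 18.4 and 25.6 in pair 2, and H2-D1, a class I histocompatibility gene, 21.5 and 23.6, then 25.7 and 27.7. The 16 tested receptors for pathogens and cytokines had 3 members higher and 8 lower in both pairs, with a median of -0.21 (-0.13 in pair 1 and 0.03 in pair 2), and 0 had an unadjusted p under 0.05. Ifngr1, a subunit of the interferon gamma receptor, had 3.48 and 5.20, then 5.45 and 6.22. Il17ra, the receptor of interleukin 17A, had 8.51 and 6.83, then 8.67 and 5.95, while Tlr3, the receptor for double-stranded RNA such as poly(I:C), had at most 1.56. Of 25 genes of the integrated and endoplasmic reticulum stress responses, 2 were higher and 10 lower, with a median of -0.06. Ddit3, a transcription factor of both, had 18 and 18.1, then 19.5 and 27.9, a difference in pair 2 alone. Immediate early genes (median -0.06) and p53 targets (0.12) had 1 and 5 of 12 and 13 genes higher and 3 and 1 lower, and heat shock chaperones (0.05) had 1 of 8 in each direction.

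Genes of energy metabolism and protein turnover moved in opposite directions in the pairs. The 76 nuclear genes of oxidative phosphorylation had a median of -0.28 in pair 1 and 0.41 in pair 2, and 0 were higher and 3 lower in both. Ndufc2, a subunit of complex I, had 250 and 333 CPM in pair 1 and 444 and 316 in pair 2. The same turn was found in each of the 6 cell types, with medians of -0.33 to -0.16 in pair 1 and 0.23 to 0.48 in pair 2. Mitochondrial transcripts had medians of -0.15 and 1.02, cytosolic ribosomal protein genes -0.18 and 0.49 and proteasome subunits -0.16 and 0.30. The library labelled wild-type MIA 2 had the lowest share of mitochondrial UMIs of the MIA libraries, 0.0148%, beside 0.0242% to 0.0286% in the others. The part of RNA quality or of residual cytoplasm in these lists was not tested.

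Exceptions to the turn were found within cell types. Of 8 tested mitochondrial transcripts, 7 in apical progenitors (medians of 0.29 and 0.71 in the pairs) and 6 in callosal projection neurons (0.13 and 1.35) were higher in Csf1r-null in both pairs. In callosal projection neurons, 48 of 81 ribosomal protein genes were higher in Csf1r-null in both pairs and 1 was lower, against 2250 and 2185 of 9968 genes tested there. Their median was 0.28 over both pairs, but 0.02 in pair 1 and 0.54 in pair 2, and in the other 5 cell types at most 10 of the 81 were higher in both.

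The genes that the study names for nuclei, which it chose on these samples, gave no call over all nuclei after MIA, and 2 of 14, the globins Hba-a1 and Hba-a2, had an unadjusted p under 0.05. The study reports them for MIA against saline, per cell type, in wild-type but not in Csf1r-null mice. There Flrt1, Tenm4 and Auts2 were raised, and the proteasome subunits, adult globins, Tsg101 and Ppia lowered. That contrast is not the one made here, so these values do not check the study's result. Among the proteasome subunits, Psma6 had 74.9 and 93.3 CPM in pair 1 and 124 and 89.3 in pair 2, and Psmb6 134 and 151, then 197 and 147. The endosomal sorting gene Tsg101 had 145 and 159, then 215 and 155, and the cyclophilin Ppia 686 and 783, then 943 and 782. Each of the 4 lay lower in Csf1r-null in pair 1 and higher in pair 2. The adhesion genes Flrt1 and Tenm4 had the reverse pattern, with 108 and 84.3, then 54.4 and 71.8, for Flrt1 and 328 and 270, then 225 and 241, for Tenm4. Flrt1 kept it in all 6 cell types: in migrating neurons it had 205 and 177 in pair 1 and 90.0 and 124 in pair 2. Auts2, a chromatin and cytoskeletal regulator, had 3090 and 2720, then 3050 and 3150. Of all 14 genes, 2 were higher and 1 lower in both pairs. Of the 10 genes of the Flrt, teneurin and latrophilin families 3 were higher and 0 lower, of 39 axon guidance genes 9 and 6, and of 19 genes of non-canonical Wnt signaling 2 and 4, and their medians lay between -0.06 and 0.06.

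**Figure D4:**
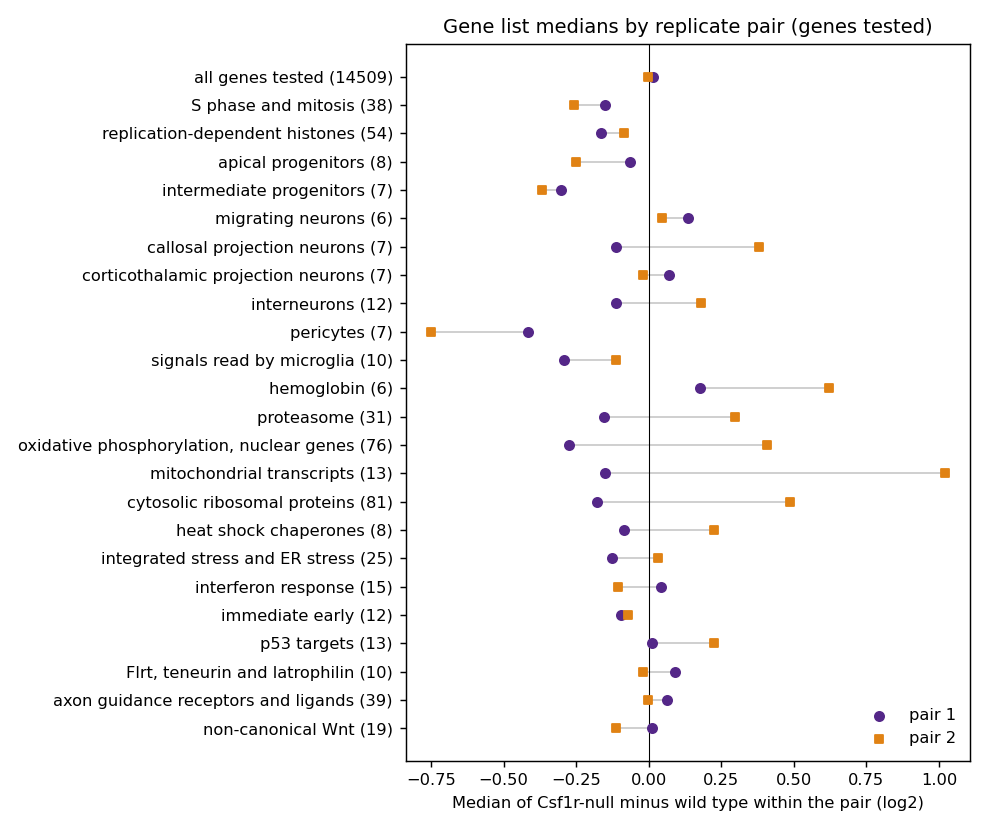
Median log2 difference of Csf1r-null minus wild type per gene list, in pair 1 (purple circles) and pair 2 (orange squares), with the number of genes tested in brackets. Cell cycle, histone, progenitor, pericyte and immediate early lists and the signals read by microglia lie below 0 in both pairs. The hemoglobin, migrating neuron and p53 target lists lie above 0 in both. All barcodes are included, and the fitted hemoglobin median went from 0.40 to -0.42 without hemoglobin-rich barcodes. The proteasome, oxidative phosphorylation, mitochondrial and ribosomal lists are among those on opposite sides of 0.

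Vessel cells were few. Pericyte genes had a median of -0.84 over 7 genes, with 0 higher and 5 lower in both pairs, and 3 had an unadjusted p under 0.05 in edgeR's test. Of all 14509 genes tested, 22.7% were higher and 19.7% lower in both pairs, and 1.46% had such a p. Rgs5, a marker of these cells, had 1.74 and 2.49 CPM in pair 1 and 2.24 and 6.85 in pair 2. The growth factor receptor Pdgfrb had 2.45 and 4.55, then 4.68 and 8.20. The library labelled wild-type MIA 2 was again the highest. Pericyte-like nuclei made up 0.114% and 0.0691% of nuclei in pair 1 and 0.136% and 0.216% in pair 2. These shares rest on 5 and 4 nuclei in pair 1 and 8 and 11 in pair 2, and in pair 1 their order is the reverse of that of the 2 genes. Endothelial genes had a median of -0.94 over 5 tested, with 0.03 in pair 1 and -1.28 in pair 2. Of the lists with 3 tested genes, fibroblasts of the meninges had medians of 0.21 in pair 1 and -0.36 in pair 2, oligodendrocyte precursors -0.19 and 1.22, and border macrophages -0.09 and -0.04, and none of these genes had an unadjusted p under 0.05. The 4 tested sex-linked genes had a median of -0.08.

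Hemoglobin genes differed between genotypes by amounts that rested on very few barcodes. Hba-x and Hbb-y are the embryonic chains made by primitive red cells, and Hba-a1, Hba-a2, Hbb-bs and Hbb-bt the adult chains. Hbb-y had 79.9 CPM in Csf1r-null MIA 1, 44.0 in wild-type MIA 1, 78.9 in Csf1r-null MIA 2 and 4.15 in the library labelled wild-type MIA 2. Hba-x had 34.5 and 20.1, then 50.0 and 10.2. Both Csf1r-null libraries lay above both wild-type labels, and the fitted log2 differences were 1.67 (SE 0.977) and 1.37 (SE 0.527), with unadjusted p = 0.12 and 0.027 in edgeR's test. Without the library labelled wild-type MIA 2 that of Hba-x was 0.54. However, a single barcode held 740 of the 810 Hbb-y UMIs of Csf1r-null MIA 2 and another 786 of the 1239 of Csf1r-null MIA 1. Barcodes in which at least 10% of UMIs were hemoglobin numbered 2, 2, 1 and 1 in the 4 MIA libraries, and they held 70.0%, 44.0%, 51.9% and 4.77% of all hemoglobin UMIs. With them left out, a choice made after the data were seen, Hbb-y had 4.19 and 4.01 in pair 1 and 6.82 and 3.33 in pair 2. What remained of the difference was 0.46 (SE 0.372). Hba-x then had 0.645 and 1.08 in pair 1 and 2.82 and 0.991 in pair 2, opposite orders, with a difference of 0.46 (SE 0.536).

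For the adult alpha chains the direction turned. Hba-a1 (chromosome 11, 32283511 to 32284465, GRCm38, protein-coding) had 98.2 and 84.9 CPM in pair 1 and 99.0 and 60.3 in pair 2, higher in Csf1r-null. Without the hemoglobin-rich barcodes it had 24.2 and 39.9, then 40.7 and 59.2, the reverse order in both pairs, and the log2 difference went from 0.47 (SE 0.151) to -0.62 (SE 0.300, unadjusted p = 0.068 in edgeR's test). Hba-a2 went from 63.4 and 57.4 in pair 1 and 65.1 and 44.8 in pair 2 to 17.9 and 31.5, then 35.8 and 43.8. Of the adult beta chains, Hbb-bt lay lower in Csf1r-null in both pairs with all barcodes (log2 differences of -0.68 and -0.07) and without the rich ones (-0.83 and -0.18). Hbb-bs was lower in pair 1 in both settings (-0.78 and -0.80), and in pair 2 it went from 0.22 to -0.08. The median over the 6 tested hemoglobin genes was 0.40 with all barcodes and -0.42 without the rich ones. Erythroid genes other than hemoglobin were scarce, with 31, 43, 22 and 27 UMIs in the 4 libraries. The Hba-a1 and Hba-a2 genes are near-identical copies whose reads the counting could split, so each is uncertain by itself.

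**Figure D5:**
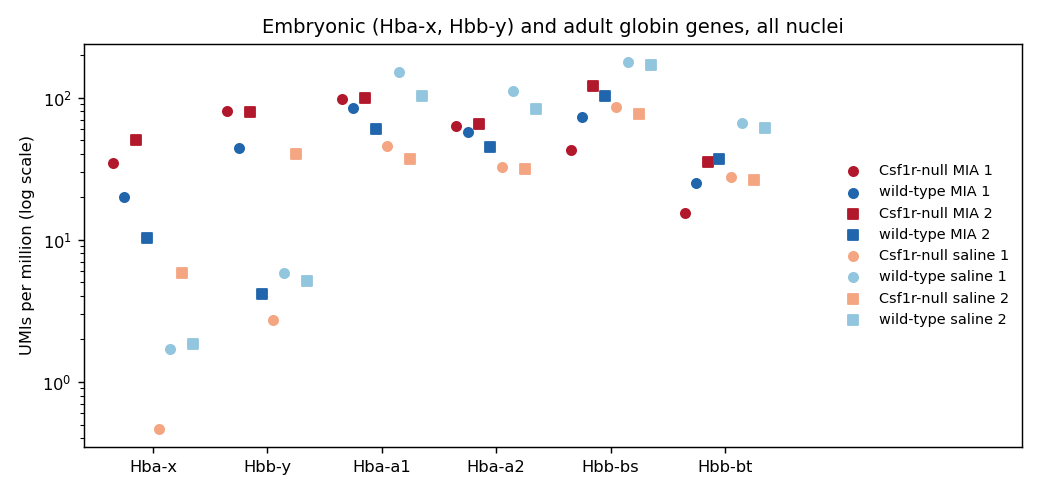
CPM (log scale) of 2 embryonic and 4 adult globin genes in the 8 nuclei libraries, all barcodes included, each point 1 library. Hbb-y spans 2.74 to 79.9, and the Csf1r-null MIA libraries hold the highest values of Hba-x and Hbb-y.

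The test per cell type called 3 of 61394 pairs of gene and cell type (0.00489%), in edgeR's quasi-likelihood fits with Benjamini-Hochberg adjustment, and DESeq2 called 0. With no replicate block edgeR called 0 as well. The non-coding gene Gm10076 (chromosome 14, 105681828 to 105682211, GRCm38) was higher in Csf1r-null in apical progenitors, by 2.37 on the log2 scale (SE 0.365, adjusted p = 0.0129 in edgeR's test), with 19.4 and 18.6 CPM in pair 1 and 530 and 56.9 in pair 2. In callosal projection neurons it was higher by 2.58 (SE 0.331, adjusted p = 0.000193 in edgeR's test), with 27.8 and 15.1, then 566 and 50.1. Over all nuclei it had 17.3 and 17.8 in pair 1, 557 and 46.5 in pair 2, and 40.7, 11.4, 475 and 260 in the saline libraries. It was thus high in 3 of the 4 replicate 2 libraries and low in replicate 1, and the call came from pair 2. Without the library labelled wild-type MIA 2 the log2 differences were 0.47 and 1.20, and neither was called. Without Csf1r-null MIA 2 they were 1.32 and 1.81, again with no call.

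The third call was Hba-a1 in corticothalamic projection neurons, where it was lower in Csf1r-null by 1.99 on the log2 scale (the fitted value is -1.99, SE 0.300, adjusted p = 0.0267 in edgeR's test). It had 13.1 CPM in Csf1r-null MIA 1, 96.3 in wild-type MIA 1, 21.8 in Csf1r-null MIA 2 and 37.1 in the library labelled wild-type MIA 2. Of the 517 UMIs in wild-type MIA 1, 405 lay in 1 of 1483 nuclei. Without hemoglobin-rich barcodes there were 59, 112, 57 and 94 UMIs, and the log2 difference was -0.71 (SE 0.311, adjusted p = 0.9999 in edgeR's test). The call was lost when any library other than the 2 of MIA replicate 2 was left out, with log2 differences of -1.07 without Csf1r-null MIA 1 and -1.29 without wild-type MIA 1. In intermediate progenitors, migrating neurons and interneurons 0 genes were called. At an unadjusted p under 0.05 in edgeR's test there were 331 of 9955 genes (3.32%), 300 of 11130 (2.7%) and 269 of 8086 (3.33%). These shares, too, are smaller than a threshold of 0.05 would pass if no gene differed.

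The effect of the genotype after MIA was set against that after saline, which shares no library with it. The interaction was called for 2 of 14509 genes (0.0138%), Hba-a1 and Hba-a2, with log2 differences of the effects of 2.07 (SE 0.216) and 1.93 and an adjusted p of 0.0248 for both in edgeR. With no replicate block 0 genes were called. Leaving out 1 library at a time gave 0 calls without wild-type MIA 1, Csf1r-null MIA 2, the library labelled wild-type MIA 2 or either library labelled Csf1r-null saline, 1 without Csf1r-null MIA 1 and 27 without wild-type saline 2. After saline Hba-a1 had 45.9 CPM in Csf1r-null saline 1, 152 in wild-type saline 1, 37 in the library labelled Csf1r-null saline 2 and 103 in wild-type saline 2, a log2 difference of -1.61. Without the hemoglobin-rich barcodes the interaction of Hba-a1 was 0.83 (SE 0.420, adjusted p = 0.908 in edgeR's test), and Hba-a1 was then lower in Csf1r-null in all 4 pairs of the series, by 0.71 and 0.53 after MIA and by 1.15 and 1.90 after saline on the log2 scale. Within cell types 1 gene was called, in callosal projection neurons.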

How the data were processed

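The deposited files hold raw UMI counts per gene and barcode of sorted nuclei, which the authors made with Cell Ranger. The submitters' processing notes name version 3.1.0 and mm10, and the file headers 3.1.0 for replicate 1 and 6.0.1 for replicate 2. Replicate 1 files hold all 6794880 barcodes and 31053 genes, replicate 2 files called barcodes only and 32285 genes, so the replicate number also stands for software, gene list and barcode filter. The 30406 genes shared by Ensembl ID were used. Genome positions are from GENCODE on GRCm38. The microglia libraries of the series were not used here.

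UMIs of all barcodes past both minimums (500 UMIs, 200 genes) were summed per library, doublets included (11132351 to 17605575 UMIs per MIA library). Genes kept by filterByExpr were fitted with edgeR 4.0.16 (R 4.3.3), quasi-likelihood, TMM scaling, the 4 groups of 8 libraries and the replicate number as a block, with Benjamini-Hochberg adjustment and a threshold of 0.05. Samples of 1 number deviated together (correlations of 0.487 to 0.692 between groups). CPM use TMM-scaled totals, and differences within a pair are log2(CPM + 0.5). DESeq2 1.42.0 was an alternative, and the fit was tested on simulated data.

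For cell types, Scrublet's own threshold marked 0.0% to 2.52% of barcodes, so the highest scores were removed at 0.8% per 1000 nuclei (3.65% to 4.95%). Nuclei were clustered in scanpy 1.11.5 (2000 variable genes, 30 components, 20 neighbours, Leiden resolution 1) without Csf1r, hemoglobin, erythroid, mitochondrial, ribosomal, proteasome, respiratory, stress, immediate early, sex-linked and interferon genes. Clusters were named after the marker list that led by 0.35 (log2) with at least 3 markers, unless over 80% came from 1 library or hemoglobin led, a rule set after the clusters were seen. Intervals are exact at 95%, and a count of 0 was bounded by 3 counts.

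Named genes are the microglial list, in each direction the 10 called genes with the largest change (filled by the smallest unadjusted p) that lie on 1 side in both pairs at a mean of at least 10 CPM, up to 4 of the most abundant genes of a list, the genes the study names, and up to 3 called genes per cell type and direction. Others were chosen after their values were seen, as was leaving out hemoglobin-rich barcodes. The members and gene lists were chosen with earlier results of these data known. Results for some genes are not reported here.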

Additional observations from a re-analysis of the deposited data

Results flagged for a closer look

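The genotype effect on Hba-a1 and Hba-a2 differed between MIA and saline, by 2.07 and 1.93 on the log2 scale, with an adjusted p of 0.0248 for both in edgeR's interaction test. Hba-a1 was higher in Csf1r-null in 2 of 2 MIA pairs and lower in 2 of 2 saline pairs, and without hemoglobin-rich barcodes the difference of the effects was 0.83 (adjusted p = 0.908). With no replicate block 0 genes were called for this interaction.

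In callosal projection neurons the effect on the non-coding gene 4921534H16Rik differed by -2.54 on the log2 scale between MIA and saline (SE 0.441, adjusted p = 0.0379 in edgeR's interaction test), the 1 call among 9968 genes there, with 0 calls in the other 5 cell types. It had 54 and 77 UMIs in MIA pair 1 and 6 and 13 in MIA pair 2, and 153 and 25, then 22 and 10, in the saline pairs, with Csf1r-null first, so that it lay lower in Csf1r-null in both MIA pairs and higher in both saline pairs. In alternatives added after the data were seen, with 1 library left out at a time, the difference ran from -3.30 to -1.81 (-1.81 without wild-type saline 1, adjusted p = 0.773), and it was not called without Csf1r-null MIA 1, wild-type MIA 1, Csf1r-null MIA 2, Csf1r-null saline 1 or wild-type saline 1. It was also not called with no replicate block (-2.58, adjusted p = 1.0) or with DESeq2 (-2.55, adjusted p = 0.9997).

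Some differences moved one way in both MIA pairs and the opposite way in both saline pairs, which was not tested. The share of intermediate progenitors among nuclei differed by a mean of -2.42 percentage points after MIA and 1.06 after saline, but the saline differences did not hold: pair 2 went from 0.45 to -0.62 among nuclei of at least 1000 UMIs, and pair 1 from 1.66 to -0.43 without the cluster led by striatal genes that makes up 20.64% of wild-type saline 1. The median of the intermediate progenitor genes was -0.34 after MIA (-0.30 and -0.37 in the pairs) and 0.15 after saline (0.10 and 0.34). The median of the hemoglobin genes was 0.40 after MIA (0.18 and 0.62) and -1.17 after saline (-1.22 and -1.18), but -0.42 and -1.25 without hemoglobin-rich barcodes, the same direction in both. The median of the immediate early genes was -0.062 after MIA (-0.10 and -0.07) and 0.00 after saline (0.21 and 0.04).

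Barcodes under 100 UMIs, which no test used, held microglial RNA in wild-type MIA 1 at 1130 CPM (3605 UMIs of the 21 genes, relative to all UMIs of these barcodes). The values were 57.8 in wild-type saline 1, 23.7 in Csf1r-null MIA 1 and 24.7 in Csf1r-null saline 1. Replicate 2 files hold called barcodes only, so the same value was not analysed here for the library labelled wild-type MIA 2.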

How the results depend on the processing

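The count of genes called over all nuclei stayed at 0 in every setting but the fit of the 4 MIA libraries alone, which called 2 (Hba-x and Hbb-y) on 1 residual degree of freedom. With no replicate block it was 0, with 60 genes at an unadjusted p under 0.05. The 2 interaction calls became 0 with no replicate block, with both libraries that go against their labels left out, and without hemoglobin-rich barcodes (at least 10% hemoglobin UMIs), and ran from 0 to 27 when 1 library at a time was left out, with 27 without wild-type saline 2. The 3 calls within cell types became 0 with no replicate block and 0 with DESeq2, 10 with the 4 MIA libraries only, 21 with no filter on low counts, 13 with both doubted libraries left out, 2 without hemoglobin-rich barcodes, and from 4 to 71 with 1 library left out, the 71 without wild-type MIA 1. The cause was not tested.

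Among nuclei of at least 1000 UMIs, Csf1r-null MIA 2 had 8.672% apical and 9.925% intermediate progenitors, 30.97% migrating, 10.67% callosal and 25.81% corticothalamic neurons, and the library labelled wild-type MIA 2 had 12.83% intermediate progenitors, 7.621% callosal and 22.47% corticothalamic neurons. The directions within both MIA pairs stayed for both progenitor classes, while corticothalamic neurons turned from 0.36 to -0.39 points in MIA pair 1 and migrating neurons from 0.78 to -0.2 in pair 2.

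The median of the S phase and mitosis list ran from -0.314 (without wild-type MIA 1) to -0.112 (without the library labelled wild-type MIA 2) and was -0.066 with both doubted libraries left out. The intermediate progenitor list ran from -0.467 to -0.112, with -0.153, and the apical list gave 0.004 with both left out. The hemoglobin median was -0.418 without hemoglobin-rich barcodes. Depth limits low genes such as the microglial ones, whose values rest on few UMIs.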
